A study of Mus musculus with 7 samples.

Results

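The genes described here are the mouse heat shock proteins, their J-domain partners and the chaperonins. They were all genes whose symbol in the deposited count table begins with Hspa, Hspb, Hspd, Hspe, Hsph, Hsp90, Dnaja, Dnajb, Dnajc or Cct2 to Cct8 followed by its number, with pseudogenes named -ps left out. This rule used names alone and gave 81 genes of 53801. They were measured by RNA sequencing of bulk tissue labelled cortical plate from C57BL/6J mice at 2 ages. The adult group, aged 10.5 months, held 3 libraries, all from females that carried a CamK II-Cre transgene. Atr and Nbs1, the genes with a floxed allele, act in the response to DNA damage. Adult replicates 1 and 3 were Atr fl/+ and adult replicate 2 was Atr +/+. The group at embryonic day 14.5 (E14.5) held 4 libraries, all Nbs1 fl/+ with a Nestin-Cre transgene, with males in replicates 1 and 4 and females in replicates 2 and 3. The CamK II promoter drives Cre in forebrain excitatory neurons and the Nestin promoter drives it in neural progenitors, so a floxed allele is removed in those cells. No library lacked a Cre transgene. Age cannot be told apart from Cre driver, floxed allele or library kit, since TruSeq stranded mRNA was used in adults and TruSeq RNA v2, which does not mark strand, at E14.5. By the dates in the labels, the embryonic brains were taken 12 days after the plug, and the stage is used as labelled. No label states that every library is a separate animal, and p-values therefore measure the spread between these samples.

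Chaperones help other proteins reach and keep their folded shape. HSP70 proteins bind short stretches of unfolded chains in a cycle driven by ATP, which J-domain proteins of the DNAJA, DNAJB and DNAJC classes start and nucleotide exchange factors, such as the HSP110 class, reset. HSP90 acts later on kinases, receptors and other clients, small heat shock proteins hold unfolding proteins without ATP, and the chaperonins enclose a chain in a chamber. In mitochondria that chamber is built from HSP60 and HSP10, and in the cytosol it is the CCT ring, which folds actin and tubulin. Heat shock factors raise many, but not all, of these genes under stress, and neurons are known for weak induction of the inducible HSP70.

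The libraries held 27327927 to 29996018 counts in adults and 32533065 to 43197226 at E14.5. Levels are given as CPM, the counts of a gene set to a common library total, after TMM scaling, whose factors were 0.844 to 0.854 in adults and 1.12 to 1.15 at E14.5. The mitochondrial genome took 7.74% to 8.51% of counts in adults and 2.22% to 2.36% at E14.5. Libraries of the same age had Spearman correlations over genes of 0.994 to 0.996, and libraries of different ages 0.774 to 0.790. All 8 cortical identity markers were tested, and their summed level was 699.8 to 710.2 CPM in adults and 1804 to 2021 CPM at E14.5. The libraries also differed in cell content. The summed level of 6 mature neuron markers, all called higher in adults, was 10870 to 11390 CPM in adults and 275.6 to 344.8 CPM at E14.5, and that of 6 oligodendrocyte markers, also all higher, was 5677 to 5929 CPM in adults and 29.6 to 32.4 CPM at E14.5. The summed level of 6 proliferation markers, all called lower in adults, was 44.3 to 49.5 CPM in adults and 1268 to 1463 CPM at E14.5, and that of 6 radial glia markers, also all lower, was 100.9 to 109.0 CPM in adults and 1985 to 2059 CPM at E14.5. In bulk tissue, fewer cells of a type and less RNA per cell cannot be told apart, and the part of cell content in the results that follow was not tested.

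Of the 81 genes, 74 passed the filter on low counts. In edgeR's quasi-likelihood test with Benjamini-Hochberg adjustment over all 20800 genes tested, 36 were called higher in adults, 28 were called lower and 10 were not called. That is 86.5% of them called, beside 86.4% of all genes tested, so the share of chaperone genes called was near the background. By direction, 48.6% were higher and 37.8% lower, beside 41.7% and 44.7% of all genes. The split depended on scaling, since 56.2% of the chaperone calls were higher with TMM factors and 43.5% with library totals alone (30 higher and 39 lower), where the median over all genes was -0.49 in place of -0.08 on the log2 scale. Of the 10 genes not called, 9 were called lower with library totals alone, and Hspa1l was the exception. A change beyond 2-fold was called for 47.3% of the chaperone genes tested, beside 47.2% of all genes. It was higher for 23 genes (31.1%, beside 24.6% of all genes) and lower for 12 (16.2%, beside 22.7% of all genes). These included Hspb2 and Hspb3 among the higher and Dnajb7 and Dnajc22 among the lower, which passed the filter through a single age. With a mean of at least 1 CPM required, 21 genes were higher and 10 lower beyond 2-fold. Adult and E14.5 libraries were fully separated for 65 of the 74 genes (87.8%), beside 85.3% of all genes. The families differed in direction. All 7 tested CCT genes and both mitochondrial chaperonin genes were lower in adults. Of 14 tested HSP70 and HSP110 genes, 7 were higher, 3 lower and 4 not called, and of 26 tested DNAJC genes, 14 were higher, 9 lower and 3 not called.

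**Figure D1:**
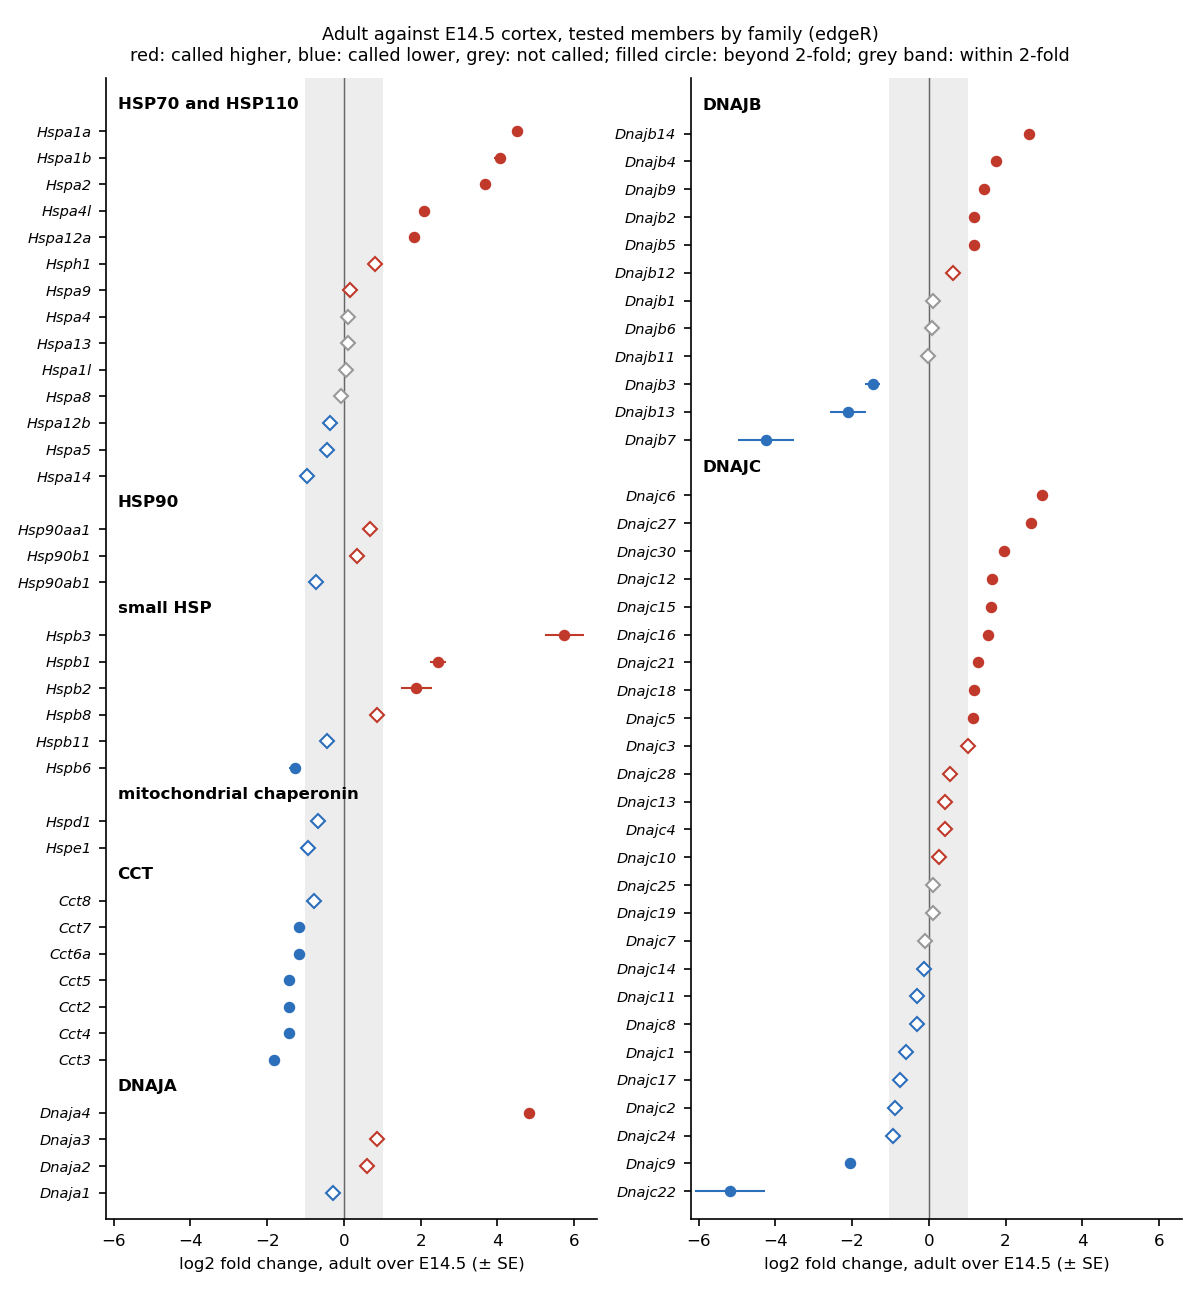
Log2 fold change (adult over E14.5, horizontal axis, with SE as bars) of the 74 tested chaperone genes, grouped by family. Red marks genes called higher in adults, blue genes called lower and grey genes not called; filled circles lie beyond 2-fold by test, and the 7 CCT genes all lie left of 0.

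The chaperone genes together took 0.854% to 0.934% of all counts in adults and 1.24% to 1.26% at E14.5, so on this scale the adult libraries were below the E14.5 libraries without overlap. After TMM scaling the ages overlapped, with a summed level of 10070 to 10940 CPM in adults and 10760 to 11220 CPM at E14.5. CCT genes took 0.0827% to 0.0898% in adults and 0.282% to 0.288% at E14.5. DNAJC genes went the other way, at 0.175% to 0.184% in adults and 0.147% to 0.149% at E14.5. Per unit of gene length, on the deposited RPKM scale, Hsp90ab1, Hspa8 and Hsp90aa1 together held 38.2% to 39.0% of the family total in adults and 41.2% to 42.0% at E14.5. The order of the genes changed with age. Hsp90aa1 was 3rd in adults and 4th at E14.5, and Cct2 was 12th in adults and 3rd at E14.5. Dnajc6 was 7th in adults and 37th at E14.5, Dnaja4 was 30th in adults and 66th at E14.5, and Dnajc9 was 42nd in adults and 18th at E14.5.

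**Figure D2:**
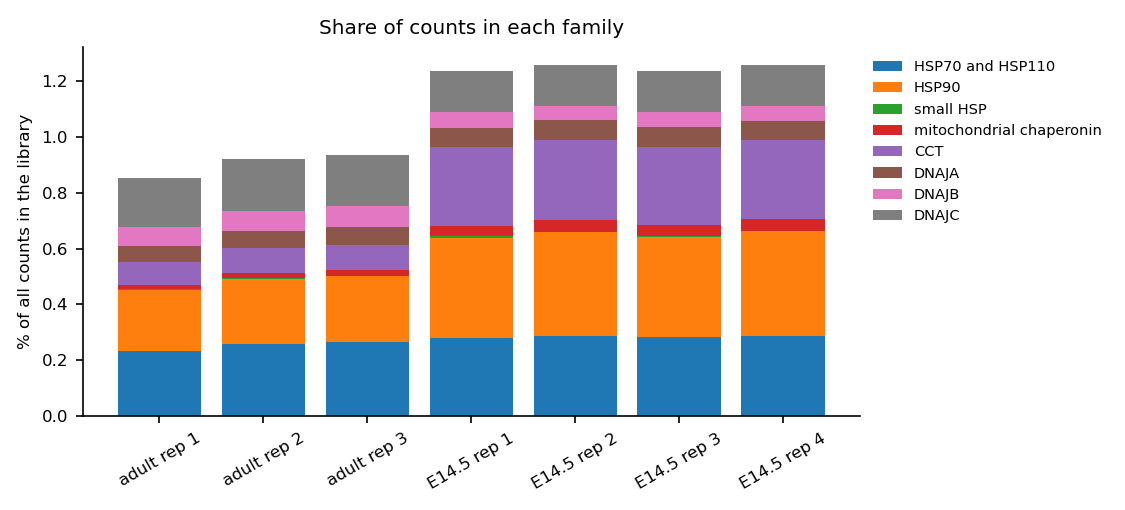
Share of all counts of a library (vertical axis, percent) that fell in each chaperone family, with adult libraries on the left and E14.5 libraries on the right. The stacked totals lie between 0.854% and 0.934% in adults and between 1.24% and 1.26% at E14.5, and the CCT segment is the one that differs most between the ages.

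The cytosolic HSP90 genes moved in opposite directions. Hsp90aa1, the stress-inducible form, had 875, 966 and 965 CPM in adults and 572, 609, 564 and 586 CPM at E14.5. Every adult library lay above every E14.5 library, a 1.61-fold difference (log2 fold change 0.68, SE 0.0552, edgeR adjusted p = 4.38e-07). Hsp90ab1, the constitutive form and the most abundant chaperone gene per length at both ages, had 1356, 1486 and 1436 CPM in adults and 2285, 2407, 2373 and 2456 CPM at E14.5. Here every adult library lay below every E14.5 library, a 1.67-fold difference (log2 fold change -0.74, SE 0.0536, edgeR adjusted p = 1.71e-07). Hsp90b1, the form of the endoplasmic reticulum, had 328, 340 and 366 CPM in adults and 262, 279, 255 and 291 CPM at E14.5 and was higher (log2 fold change 0.34, SE 0.0610, edgeR adjusted p = 0.000294). The change of Hsp90b1 became -0.07 with library totals alone and was no longer called, so its direction rests on the scaling.

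Within a library, the scaling between libraries plays no part. The ratio of Hsp90aa1 to Hsp90ab1 was 0.646 to 0.672 in adults and 0.238 to 0.253 at E14.5, a difference of 1.42 in mean log2 ratio. It was higher in 3 of 3 adult libraries than in any E14.5 library. The exact two-sided permutation test gave p = 0.0571 (0.0571 after adjustment over 6 gene pairs), which is the smallest p that 3 libraries against 4 allow, so no pair can pass 0.05.

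Among the HSP70 genes, the inducible Hspa1a and Hspa1b and the testis form Hspa2 were far higher in adults, while Hspa8, the most abundant form per length, was not called. Hspa1a, an inducible HSP70, had 12.5, 13.1 and 13.4 CPM in adults and 0.645, 0.60, 0.551 and 0.475 CPM at E14.5. Every adult library lay far above every E14.5 library, and the difference was 22.8-fold (log2 fold change 4.51, SE 0.125, edgeR adjusted p = 5.49e-11). Hspa1b, its neighbour on chromosome 17, had 9.95, 12.2 and 11.4 CPM in adults and 0.689, 0.60, 0.893 and 0.496 CPM at E14.5 and was higher as well (log2 fold change 4.07, SE 0.168, edgeR adjusted p = 1.39e-09). Transcripts of Hspa1a and Hspa1b are 99.1% identical over 2200 aligned bases, so how reads divide between them is uncertain and their values are not independent. In Hspa1a, 19.0% of exon bases are overlapped by a gene on the other strand, Gm20481, which had at most 2 counts in any library, and Hspa1b has no such overlap.

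Hspa2, an HSP70 known for its role in sperm formation in mouse, had 41.0, 42.6 and 39.8 CPM in adults and 3.34, 3.22, 3.36 and 2.87 CPM at E14.5. The groups were far apart (log2 fold change 3.69, SE 0.0766, edgeR adjusted p = 7.67e-12). Relative to Hspa8 in the same library, Hspa2 stood at a ratio of 0.0345 to 0.0391 in adults and 0.00278 to 0.00335 at E14.5, a difference of 3.56 in mean log2 ratio (exact permutation p = 0.0571, the smallest possible). Hspa12a, an HSP70 relative with a divergent sequence, had 257.9 to 264.8 CPM in adults and 66.4 to 84.6 CPM at E14.5, and it rose (log2 fold change 1.84, SE 0.0760, edgeR adjusted p = 1.36e-09). Its relative Hspa12b, a gene of vessel lining cells, had 6.68 to 7.67 CPM in adults and 7.78 to 11.1 CPM at E14.5. It was called lower (log2 fold change -0.36, SE 0.135, edgeR adjusted p = 0.0289), but not under every alternative, where its adjusted p reached 0.126. The summed level of 6 endothelial and mural markers was 173.2 to 195.1 CPM in adults and 178.7 to 237.2 CPM at E14.5. These markers went both ways, with 1 called higher in adults, 4 lower and 1 not called.

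Hspa8, the constitutive HSC70, had 1059, 1174 and 1168 CPM in adults and 1146, 1192, 1196 and 1210 CPM at E14.5. The groups overlapped and the gene was not called (log2 fold change -0.07, SE 0.0542, edgeR adjusted p = 0.273). It was called lower with library totals alone (log2 fold change -0.48, edgeR adjusted p = 5.27e-06) and, by less, with upper-quartile scaling, so this result rests on the scaling. The value also leaves out reads counted in 11 processed pseudogenes of at least 90% identity to Hspa8. Those held 43.7% of the reads of Hspa8 and its copies in adults and 29.9% at E14.5. Adding their counts to Hspa8 gave a higher level in adults (log2 fold change 0.25, edgeR adjusted p = 0.00125). That difference rested on 1 copy, Gm15459 on chromosome 5, which is 99.7% identical to Hspa8. Gm15459 had 10357, 10493 and 10867 counts in adults and 136, 120, 109 and 158 counts at E14.5. The gene Gm26825 covers 95.8% of Gm15459 on the other strand, and it had 5, 2 and 6 counts in adults and 1366, 1171, 1232 and 1632 counts at E14.5. With the counts of all other copies added but not those of Gm15459, the log2 fold change of Hspa8 was -0.10 and not called (edgeR adjusted p = 0.104).

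The overlap with genes on the other strand moved with the age difference over the whole table. Among the 15153 genes tested with no such overlap, the median log2 fold change was -0.17. It was 0.47 among 685 genes with over 25% and up to 50% of their exon bases overlapped, and 8.87 among 64 genes with over 90% overlapped. Only the adult kit marks strand, and the strand setting of the counting is not given in the sources used here. Of the 81 chaperone genes, 28 have some overlap. When genes without such overlap were fitted alone, 29 of 48 chaperone genes were called higher (60.4%, beside 40.8% of all 15143 genes) and 15 lower (31.2%, beside 44.5%).

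In the HSP110 class, the paralogues Hspa4l and Hspa4 differed. Hspa4l had 199, 213 and 222 CPM in adults and 49.3, 54.2, 46.9 and 48.3 CPM at E14.5 and was higher (log2 fold change 2.09, SE 0.0604, edgeR adjusted p = 7.67e-11). Hspa4 had 309, 347 and 359 CPM in adults and 307, 319, 305 and 327 CPM at E14.5. The groups overlapped and Hspa4 was not called (log2 fold change 0.11, SE 0.0598, edgeR adjusted p = 0.115). Its direction rests on the scaling, since Hspa4 was called lower with library totals alone (log2 fold change -0.31, edgeR adjusted p = 0.000519) and called higher with RLE scaling and with DESeq2. The ratio of Hspa4l to Hspa4 was 0.614 to 0.643 in adults and 0.149 to 0.171 at E14.5 (difference 1.97 in mean log2 ratio, exact permutation p = 0.0571, the smallest possible). Hsph1, the heat-inducible HSP110, was higher in adults, at 324.6 to 380.6 CPM against 187.9 to 215.6 CPM at E14.5 (log2 fold change 0.81, SE 0.0668, edgeR adjusted p = 5.13e-07).

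Of 9 genes listed as heat-inducible cytosolic chaperones, 6 were called higher in adults, 1 lower and 2 were not called. Of all genes tested, 41.7% were higher and 44.7% lower. The median log2 fold change of the list was 0.81, beside -0.08 over all genes tested. The 6 were Hspa1a, Hspa1b, Hsph1, Hsp90aa1, Hspb1 and Dnajb4. Dnaja1 was the lower one, and Hspa8 and Dnajb1 were not called. Dnajb1, the class B J protein that works with inducible HSP70, had 53.3, 61.3 and 59.8 CPM in adults and 53.9, 53.8, 54.1 and 51.7 CPM at E14.5 (log2 fold change 0.12, SE 0.0561, edgeR adjusted p = 0.0616). Summed over the list, adult libraries held 2726, 3042 and 3044 CPM and E14.5 libraries 2386, 2508, 2457 and 2490 CPM. A large part of this sum was the constitutive Hspa8, with 1059, 1174 and 1168 CPM in adults and 1146, 1192, 1196 and 1210 CPM at E14.5. The order of the ages in this sum turned with the scaling, since with library totals alone the list held 2311, 2566 and 2597 CPM in adults and 2742, 2825, 2760 and 2791 CPM at E14.5. The summed level of 9 immediate early genes, which also respond to handling and to neuronal activity, was 924.8 to 1607 CPM in adults and 42.1 to 50.1 CPM at E14.5, and its part in these values was not tested.

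Heat shock factors bind repeats of the unit GAA and its reverse, and the letters GAANNTTCNNGAA and their reverse complement TTCNNGAANNTTC were searched for on both strands of the RefSeq promoter windows (GRCm38.p6, 250 bases before to 50 after each start). They occurred in 198 of 32851 windows (0.603%) and in 6 of the 85 windows that 66 of the chaperone genes have (7.06%), which belong to 4 genes. Windows of Dnajb6 and of Hsph1 overlap, and Hspe1 and Hspd1 share a stretch, so the chaperone share counts the same stretch more than once. The stretches are shown because genes that carry the same letters differed in their change with age, and capitals mark the match.
Hspe1 and Hspd1, chr1:55088053-55088082, plus strand: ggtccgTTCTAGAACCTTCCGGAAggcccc
Dnajb6, chr5:29735844-29735873, plus strand: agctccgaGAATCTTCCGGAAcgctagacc
Hsph1, chr5:149636287-149636316, minus strand: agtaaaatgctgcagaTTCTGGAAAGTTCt
The stretch on chromosome 1 holds 2 overlapping matches and lies between the RefSeq starts of Hspe1 and Hspd1, which are read away from each other. By GENCODE positions, Hspd1 reaches to base 55088243 and covers the stretch. The distances that follow are from RefSeq starts. There are 71 and 76 bases between these matches and the Hspe1 start, and 126 and 131 bases for Hspd1. The Hsph1 match lies after the start, beginning 36 or 15 bases past it, depending on which annotated start is used. Of the genes with the letters, Hsph1 was higher in adults, Hspd1 and Hspe1 were lower, and Dnajb6 was not called. Dnajb6, which keeps aggregating proteins soluble, had 147, 149 and 153 CPM in adults and 148, 133, 145 and 138 CPM at E14.5 (log2 fold change 0.08, SE 0.0492, edgeR adjusted p = 0.134). A match in such a window is a description and not a site shown to be bound.

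Hspd1 and Hspe1 encode the barrel and the lid of the mitochondrial chaperonin. Hspd1 had 150, 171 and 173 CPM in adults and 251, 280, 255 and 275 CPM at E14.5, and it was lower in adults by 1.61-fold (log2 fold change -0.69, SE 0.0650, edgeR adjusted p = 1.72e-06). Hspe1 had 44.2, 42.7 and 46.8 CPM in adults and 85.5, 83.7, 83.5 and 87.6 CPM at E14.5, and it was lower by 1.91-fold (log2 fold change -0.93, SE 0.0491, edgeR adjusted p = 1.05e-08). Adult and E14.5 libraries did not overlap for either gene. The ratio of Hspe1 to Hspd1 was 0.252 to 0.297 in adults and 0.300 to 0.342 at E14.5, a small difference of -0.24 in mean log2 ratio (exact permutation p = 0.0571, the smallest possible). Hspa9, the mitochondrial HSP70, went the other way with 267, 292 and 294 CPM in adults and 249.2, 262.8, 247.7 and 261.6 CPM at E14.5 (log2 fold change 0.16, SE 0.0517, edgeR adjusted p = 0.0153), but this became -0.26 with library totals alone and was not called under several other settings. Reads in near-identical pseudogenes made up 23.4% of the Hspd1 total in adults and 22.4% at E14.5.

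The mitochondrial list of 8 genes held 4 called higher, 3 lower and 1 not called, with a median log2 fold change of 0.13. The background over all genes tested was 41.7% higher and 44.7% lower. The J proteins of the list were mostly higher. Dnajc15, which sits at the import channel of the inner membrane, had 66.8, 68.3 and 69.2 CPM in adults and 22.2, 24.9, 20.7 and 21.2 CPM at E14.5 (log2 fold change 1.61, SE 0.0651, edgeR adjusted p = 1.11e-09). Dnajc30, which is tied to respiratory chain upkeep, had 33.6, 26.2 and 28.97 CPM in adults and 8.58, 7.07, 7.77 and 7.23 CPM at E14.5 (log2 fold change 1.95, SE 0.102, edgeR adjusted p = 9.78e-09), and 26.2% of its exon bases are overlapped by Bud23 on the other strand. Dnaja3 was higher (log2 fold change 0.85, SE 0.0497). Dnajc11, part of the machinery that shapes the inner membrane, was lower (log2 fold change -0.30, SE 0.0504), and Dnajc19, like Dnajc15 a J protein of the import channel, was not called (log2 fold change 0.11, SE 0.0782, edgeR adjusted p = 0.227).

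The CCT ring is built from 8 different subunits, of which Tcp1 is named outside the chaperone rule. All 7 subunits named Cct were lower in adults, with log2 fold changes of -0.78 to -1.84 and a median of -1.43, and 6 of them were lower beyond 2-fold. Cct3 changed most, with 98.2, 99.9 and 99.8 CPM in adults and 345, 364, 348 and 361 CPM at E14.5 (log2 fold change -1.84, SE 0.0465, edgeR adjusted p = 2.95e-11). Cct8 changed least, with 190, 206 and 206 CPM in adults and 339, 352, 342 and 349 CPM at E14.5 (log2 fold change -0.78, SE 0.0487, edgeR adjusted p = 4.40e-08), and it was the subunit not called beyond 2-fold. For all 7, every adult library lay below every E14.5 library.

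The other subunits lay between them. Cct2 had 144, 154 and 151 CPM in adults and 394, 410, 403 and 409 CPM at E14.5, and Cct5 had 138, 142 and 150 CPM in adults and 379, 391, 389 and 386 CPM at E14.5. Both were lower by a log2 fold change of -1.43. Cct4 had 106, 112 and 115 CPM in adults and 297, 313, 305 and 289 CPM at E14.5 (log2 fold change -1.44, SE 0.0519). Cct6a had 137, 159 and 156 CPM in adults and 321, 343, 337 and 348 CPM at E14.5, and Cct7 had 163, 179 and 174 CPM in adults and 377, 381, 388 and 391 CPM at E14.5. Both were lower by a log2 fold change of -1.16. Tcp1, the subunit outside the name rule, was lower too (log2 fold change -0.74, SE 0.0456, edgeR adjusted p = 4.41e-08).

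The fall was uneven, so the proportions of the ring's transcripts differed with age. Per length, the deposited RPKM of the 8 subunits summed to 263 to 285 in adults and 846 to 865 at E14.5. Cct8 ranked at the top in 3 of 3 adult libraries and Cct2 in 4 of 4 E14.5 libraries. Cct8 made up 19.8% to 20.0% of the ring's RPKM in adults and 14.7% to 14.9% at E14.5, and Tcp1 12.5% to 13.0% in adults and 8.85% to 9.24% at E14.5. Cct3 made up 4.69% to 4.97% in adults and 7.26% to 7.45% at E14.5. The highest subunit stood 3.99 to 4.25 times above the lowest in adults and 2.82 to 2.89 times at E14.5. This scale divides by 1 length per gene, which was 6.37 kb for Cct3, 3.09 kb for Cct8 and 2.56 kb for Cct2. In mean CPM, which is not divided by length, the subunits ran from 99.3 (Cct3) to 207 (Tcp1) in adults. At E14.5 they ran from 301 (Cct4) to 404 (Cct2). The order and spread of subunits within an age thus depend on the length used. They cannot be set against the equal number of subunits in the protein ring. The shares of Cct8, Tcp1 and Cct3 were each separated between the ages without overlap.

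**Figure D3:**
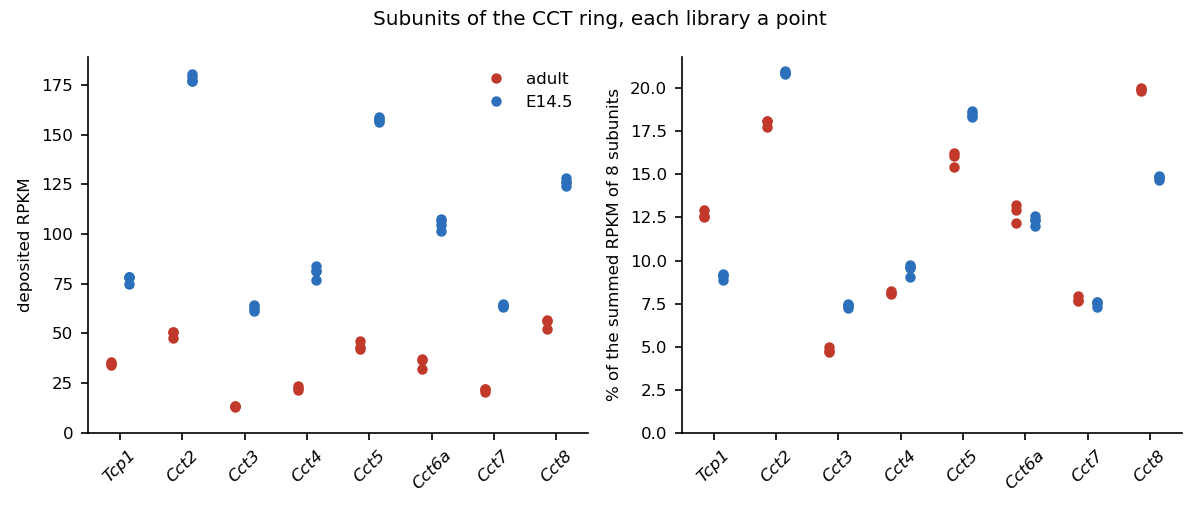
Deposited RPKM of the 8 CCT ring subunits in every library (left panel) and the share of the ring's summed RPKM in each subunit (right panel, percent), with adult libraries in red left of E14.5 libraries in blue. Cct8 holds 19.8% to 20.0% of the sum in adults and 14.7% to 14.9% at E14.5, while Cct3 holds 4.69% to 4.97% in adults and 7.26% to 7.45% at E14.5.

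Most genes that work with the ring were lower as well. Of 10 tested prefoldin and chaperonin cofactor genes, a list that includes Tcp1, 8 were called lower in adults and 2 higher. Of all genes tested, 44.7% were lower and 41.7% higher. The median log2 fold change of the list was -0.66, beside -0.08 over all genes. The largest fall was Pdcl3, a phosducin-like protein that binds the ring, at 17.3 ± 0.450 CPM in adults (SD, n = 3) and 52.4 ± 1.39 CPM at E14.5 (SD, n = 4). The largest rise was Pfdn2, a prefoldin subunit, at a log2 fold change of 0.24 (SE 0.0556), and 27.6% of its exon bases are overlapped on the other strand. Of 14 actin and tubulin genes, whose products the ring folds, 11 were lower, 2 higher and 1 was not called, with a median of -1.64. Their summed level was 4561 to 4891 CPM in adults and 12970 to 14540 CPM at E14.5. Tubb6 fell most, at 0.674 ± 0.163 CPM in adults (SD, n = 3) and 20.8 ± 3.07 CPM at E14.5 (SD, n = 4). Tuba4a, an alpha-tubulin of mature neurons, was the largest exception, with 481, 547 and 486 CPM in adults and 13.3, 15.8, 14.8 and 18.4 CPM at E14.5, and 37.3% of its exon bases are overlapped on the other strand.

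The small heat shock proteins were scarce at both ages, with a summed level of 26.7 to 27.7 CPM in adults and 23.2 to 33.9 CPM at E14.5. Of 6 tested, 4 were called higher and 2 lower, beside 41.7% higher and 44.7% lower of all genes. Among the higher genes, Hspb3 and Hspb2 passed the filter on low counts through their adult libraries alone. Hspb2 had 10, 11 and 13 counts in adults and 10, 2, 4 and 5 counts at E14.5. Hspb1, known as HSP25 in mouse, had 3.42, 3.21 and 3.43 CPM in adults and 0.689, 0.355, 0.578 and 0.764 CPM at E14.5 (log2 fold change 2.46, SE 0.210, edgeR adjusted p = 6.99e-07). Its pseudogene Hsp25-ps1, 99.8% identical over 441 bases, had 33, 37 and 37 counts in adults and 4, 0, 1 and 2 counts at E14.5. Adding those counts raised the log2 fold change of Hspb1 to 2.90.

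Hspb6, also called HSP20, went the other way with 5.27, 5.64 and 5.48 CPM in adults and 16.9, 11.8, 11.6 and 12.7 CPM at E14.5 (log2 fold change -1.28, SE 0.145, edgeR adjusted p = 7.89e-06). Hspb8, a partner of Bag3 in selective autophagy, had 10.2, 10.6 and 9.78 CPM in adults and 7.34, 4.04, 4.46 and 6.36 CPM at E14.5 (log2 fold change 0.87, SE 0.186, edgeR adjusted p = 0.00113). Within E14.5, both genes were higher in the 2 male libraries, replicates 1 and 4, than in the 2 female ones. This was seen afterwards in few libraries and was not tested, and for Hspb6 replicate 4 lay close to the female libraries. Hspb11, an intraflagellar transport subunit, was lower in adults, at 4.88 to 5.64 CPM against 6.09 to 8.47 CPM at E14.5 (log2 fold change -0.44, SE 0.132). Hspb3 had 67, 50 and 36 counts in adults and 4, 2, 0 and 0 counts at E14.5. Since it passed the filter through its adult libraries alone, its call as higher adds little to these counts. Cryab, the abundant small heat shock protein named outside the rule, had 63.6, 63.1 and 63.7 CPM in adults and 2.33, 2.29, 2.28 and 1.61 CPM at E14.5 (log2 fold change 4.91, SE 0.0997, edgeR adjusted p = 6.69e-12), and 17.0% of its exon bases are overlapped on the other strand.

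**Figure D4:**
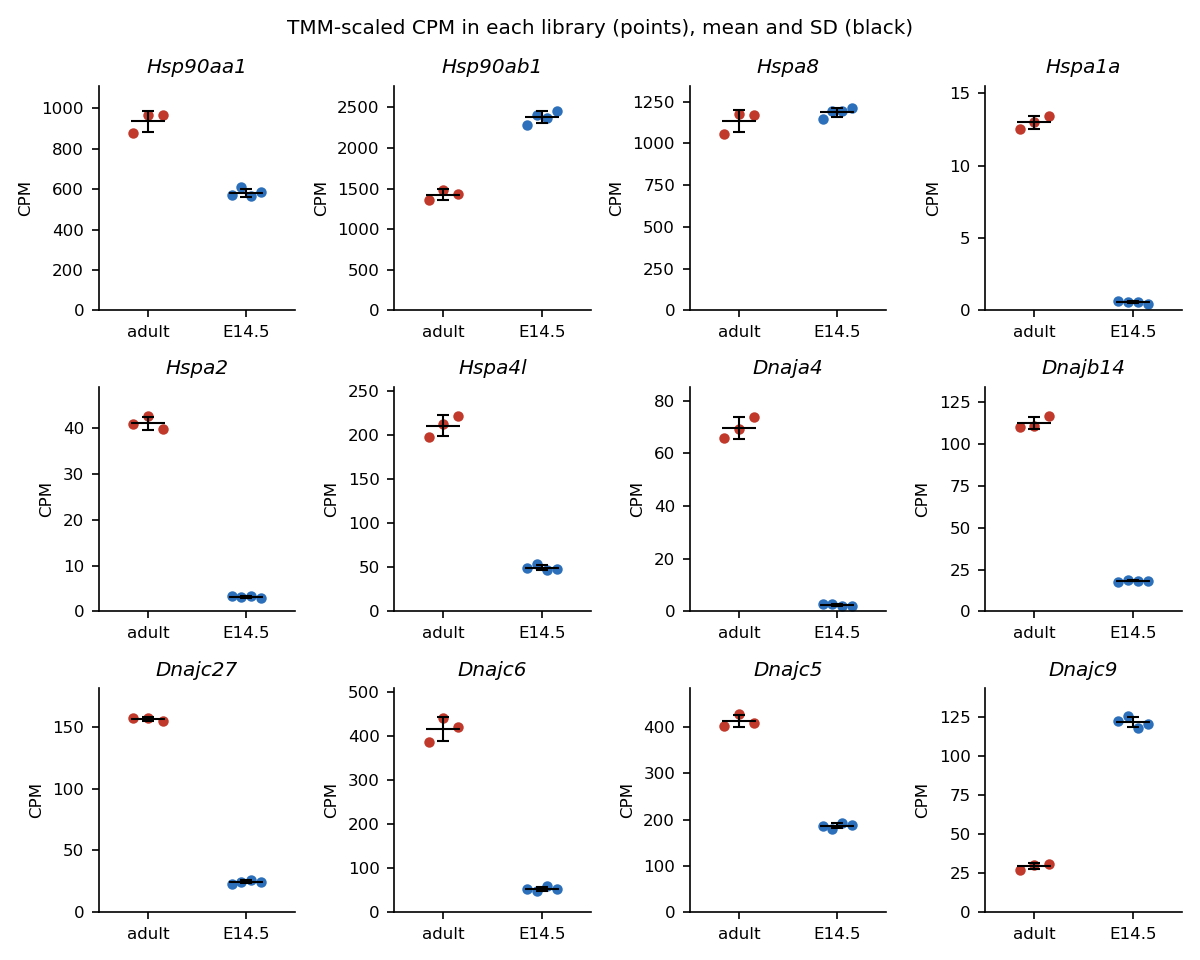
TMM-scaled CPM (vertical axes, from 0) of 12 chaperone genes in every library, with adult libraries in red on the left and E14.5 libraries in blue on the right of each panel, and black lines for mean and SD. Adult points lie above all E14.5 points except for Hsp90ab1 and Dnajc9, where they lie below, and Hspa8, where the ages overlap.

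Among class A J proteins, 3 of 4 were higher in adults, beside 41.7% of all genes. Dnaja4 had 65.7, 69.4 and 73.9 CPM in adults and 2.67, 2.97, 2.1 and 2.13 CPM at E14.5, a 28.3-fold difference (log2 fold change 4.82, SE 0.103, edgeR adjusted p = 9.24e-12). Wdr61 covers 44.1% of its exon bases on the other strand, and Wdr61 itself had 865 to 920 counts in adults and 1886 to 2442 counts at E14.5. The part of this overlap in the difference was not tested. The abundant pair moved apart, since Dnaja2 had 231, 255 and 256 CPM in adults and 158, 167, 162 and 165 CPM at E14.5 (log2 fold change 0.60, SE 0.0497). Dnaja1 had 298, 346 and 343 CPM in adults and 398, 405, 408 and 402 CPM at E14.5 (log2 fold change -0.29, SE 0.0597, edgeR adjusted p = 0.000784). The ratio of Dnaja2 to Dnaja1 was 0.738 to 0.777 in adults and 0.397 to 0.413 at E14.5, a difference of 0.90 in mean log2 ratio (exact permutation p = 0.0571, the smallest possible).

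**Figure D5:**
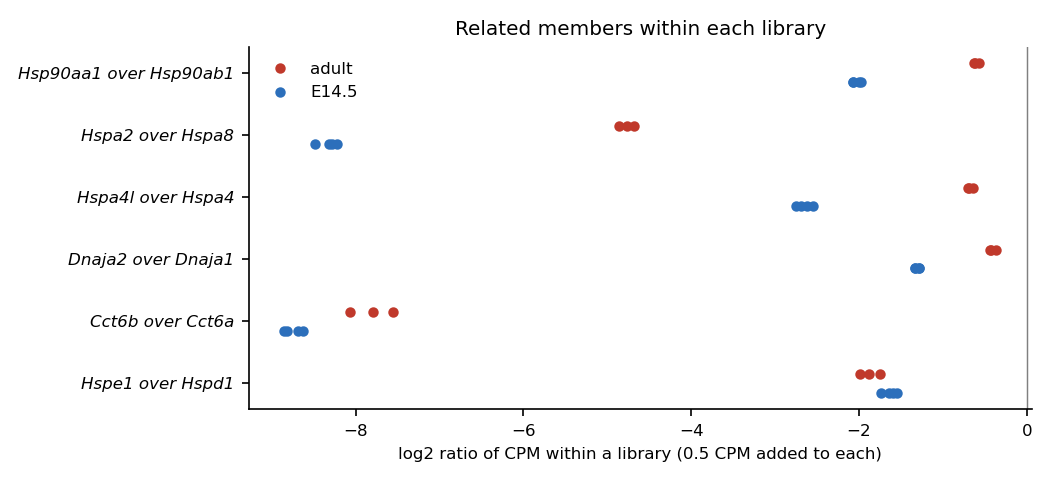
Log2 ratio of 2 related chaperone genes within each library (horizontal axis, from CPM with 0.5 added), with adult libraries in red above E14.5 libraries in blue. Adult points lie to the right of E14.5 points in 5 pairs and to the left for Hspe1 over Hspd1, and no pair overlaps between the ages.

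Of 12 tested class B genes, 6 were higher, 3 lower and 3 not called, beside 41.7% higher and 44.7% lower of all genes. Dnajb14, a J protein in the membrane of the endoplasmic reticulum, had 110, 111 and 117 CPM in adults and 17.8, 18.6, 18.4 and 18.4 CPM at E14.5 (log2 fold change 2.62, SE 0.0467, edgeR adjusted p = 3.02e-12). Its close relative Dnajb12 had a log2 fold change of 0.64 (SE 0.0485). Dnajb4 had 90.8, 97.7 and 99.6 CPM in adults and 26.5, 30.8, 27.1 and 30.1 CPM at E14.5 (log2 fold change 1.75, SE 0.0647, edgeR adjusted p = 5.51e-10). Dnajb2, a J protein with ubiquitin-binding motifs that is enriched in neurons, and Dnajb5 were each higher by a log2 fold change of 1.18.

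The class C genes, which share the J domain and little else, included genes with known roles at the synapse. Dnajc6, or auxilin, which recruits HSP70 to strip clathrin from synaptic vesicles, had 387, 440 and 420 CPM in adults and 52.6, 49.1, 59.0 and 53.5 CPM at E14.5. The groups were widely separated (log2 fold change 2.96, SE 0.0690, edgeR adjusted p = 1.68e-11). Dnajc5, the cysteine string protein of synaptic vesicles, had 403, 428 and 409 CPM in adults and 187, 180, 193 and 188 CPM at E14.5 (log2 fold change 1.15, SE 0.0471, edgeR adjusted p = 1.32e-09). Dnajc13, which acts on endosomes, was higher too (log2 fold change 0.43, SE 0.0485), although it was not called with library totals alone. All 3 genes of the vesicle and endosome list were thus called higher (median 1.14), beside 41.7% of all genes tested. The summed level of this list was 874.8 to 959.6 CPM in adults and 292.7 to 317.2 CPM at E14.5.

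Dnajc27, which joins a Rab-like GTPase to a J domain, had 157, 157 and 154 CPM in adults and 23.3, 24.7, 26.1 and 24.5 CPM at E14.5 (log2 fold change 2.67, SE 0.0491, edgeR adjusted p = 3.53e-12). Dnajc9, a co-chaperone of histones H3 and H4, was the largest fall among class C genes of at least 1 CPM, with 27.5, 30.2 and 30.9 CPM in adults and 123, 126, 118 and 121 CPM at E14.5 (log2 fold change -2.05, SE 0.0556, edgeR adjusted p = 4.93e-11). The next was Dnajc24, which serves diphthamide synthesis, with 7.75, 5.51 and 5.56 CPM in adults and 11.9, 12.0, 12.2 and 12.1 CPM at E14.5 (log2 fold change -0.94, SE 0.121, edgeR adjusted p = 2.33e-05). Adult and E14.5 libraries did not overlap for these 3 genes. Proliferation markers, which were lower in adults for 6 of 6, moved with Dnajc9, and mature neuron markers, higher for 6 of 6, moved with Dnajc6, Dnajc5 and Dnajc27. Neither direction was particular to these cells. Radial glia and erythroid markers were each lower for 6 of 6. Astrocyte, oligodendrocyte and microglia markers were each higher for 6 of 6, and interneuron markers for 5 of 5. The part of any of these cells in these results was not tested.

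Of 5 chaperones of the ribosome and of splicing, 4 were lower in adults and 1 was higher, beside 44.7% lower and 41.7% higher of all genes, with a median log2 fold change of -0.76 beside -0.08 over all genes. Dnajc2 and Hspa14 form the complex that binds chains leaving the ribosome, and they had log2 fold changes of -0.89 (SE 0.0583) and -0.97 (SE 0.0601). Hspa14 had 26.9, 25.9 and 27.9 CPM in adults and 50.1, 55.6, 50.3 and 54.6 CPM at E14.5. The splicing-associated Dnajc8 and Dnajc17 had log2 fold changes of -0.30 (SE 0.0419) and -0.76 (SE 0.0863). The gene that was higher, Dnajc21, is needed for assembly of the large ribosomal subunit and had 43.8, 48.0 and 46.0 CPM in adults and 18.6, 19.7, 17.2 and 19.5 CPM at E14.5 (log2 fold change 1.29, SE 0.0638, edgeR adjusted p = 6.05e-09).

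In the endoplasmic reticulum, the most abundant HSP70 fell while most J proteins rose. Of 13 genes, 8 were called higher, 2 lower and 3 not called (median log2 fold change 0.34), beside 41.7% higher and 44.7% lower of all genes. Hspa5, or BiP, had 208, 238 and 263 CPM in adults and 318, 317, 325 and 328 CPM at E14.5, with no overlap (log2 fold change -0.44, SE 0.0717, edgeR adjusted p = 0.000144). Dnajb9, a J protein that hands unstable proteins to degradation, had 53.7, 58.3 and 58.8 CPM in adults and 21.8, 21.1, 20.7 and 19.97 CPM at E14.5 (log2 fold change 1.45, SE 0.0555, edgeR adjusted p = 7.42e-10). Dnajc16 and Dnajc18, less studied members of the class, were higher by log2 fold changes of 1.53 (SE 0.0424) and 1.18 (SE 0.0455). Dnajb11, a soluble partner of BiP, was not called, at 51.1, 54.3 and 62.7 CPM in adults and 57.6, 57.5, 56.6 and 56.6 CPM at E14.5 (log2 fold change -0.03, SE 0.0655, edgeR adjusted p = 0.710). Of 18 genes of the unfolded protein response and of folding in that compartment, 8 were higher and 10 lower (median -0.53). Atf6, a stress sensor of its membrane, was the largest rise (log2 fold change 1.99, SE 0.0610) and Pdia4, a disulfide isomerase, the largest fall (log2 fold change -1.71, SE 0.0560).

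The ER stress response element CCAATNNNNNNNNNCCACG and its reverse complement were searched for in the same RefSeq windows. They occurred in 39 of 32851 windows (0.119%) and in 3 of the 85 chaperone windows (3.53%), those of Hspa5, Hsp90b1 and Dnajc3. The stretches are shown because they share this element while Hspa5 was lower and Dnajc3 higher in adults, and the direction of Hsp90b1 rested on the scaling. Capitals mark the element, and the Hsp90b1 and Dnajc3 stretches are the parts of the window before the first annotated exon.
Hspa5, chr2:34772020-34772049, plus strand: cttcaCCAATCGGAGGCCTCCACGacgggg
Hsp90b1, chr10:86705510-86705694, minus strand: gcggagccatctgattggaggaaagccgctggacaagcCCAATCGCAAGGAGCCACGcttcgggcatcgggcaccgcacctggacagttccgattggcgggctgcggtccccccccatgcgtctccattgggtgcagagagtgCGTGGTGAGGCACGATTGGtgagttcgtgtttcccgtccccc
Dnajc3, chr14:118937682-118937931, plus strand: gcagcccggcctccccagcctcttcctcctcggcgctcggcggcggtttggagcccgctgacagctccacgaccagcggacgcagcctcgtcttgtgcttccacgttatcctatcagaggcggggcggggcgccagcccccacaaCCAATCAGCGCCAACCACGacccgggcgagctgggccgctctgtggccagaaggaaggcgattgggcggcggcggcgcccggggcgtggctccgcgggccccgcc
Hsp90b1 holds the element once on each strand, with 193 and 88 bases between it and the RefSeq start, against 46 bases for Hspa5 and 86 for Dnajc3. By GENCODE positions, Hspa5 begins at base 34771970 and covers its element. Dnajc3, a BiP co-chaperone also known as P58IPK, had 67.4, 74.4 and 74.6 CPM in adults and 33.7, 34.9, 34.1 and 38.0 CPM at E14.5 (log2 fold change 1.03, SE 0.0595, edgeR adjusted p = 2.28e-08), and it was not called beyond 2-fold.

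Of 10 genes known mainly from the germ line, 6 did not pass the filter, and of the 4 that did, 3 were lower in adults and 1 was not called (median -1.78). Of all genes tested, 44.7% were lower. Dnajb3 had 0.983, 0.607 and 1.003 CPM in adults and 2.78, 2.02, 2.42 and 2.38 CPM at E14.5 (log2 fold change -1.46, SE 0.205, edgeR adjusted p = 4.63e-05). Dnajb13, a protein of sperm tails and motile cilia, had 5, 12 and 18 counts in adults and 119, 93, 88 and 44 counts at E14.5. Markers of choroid plexus and ependyma, whose cells carry motile cilia, differed among the libraries as well. Of 6 such markers, 2 were called higher in adults, 2 lower and 2 were not called, and their summed level was 69.7, 41.4 and 480.6 CPM in adults and 626, 702, 615 and 191.5 CPM at E14.5. A large part of the summed level was Ttr, with 46.0, 17.4 and 436.9 CPM in adults and 593, 668, 583 and 176 CPM at E14.5. Foxj1, the factor of motile cilia in this list, had 5.70, 7.33 and 7.61 CPM in adults and 21.3, 20.9, 19.0 and 11.3 CPM at E14.5. The list did not move as a whole with Foxj1. Dnah5 was higher in adults (log2 fold change 3.19, SE 0.236) and Rsph1 was not called (log2 fold change 0.13, SE 0.336). Dnajb13, Foxj1 and the summed level were all highest in replicate 3 among adults and lowest in replicate 4 at E14.5, and the part of these cells in the result was not tested. Dnajb7 had 0, 0 and 1 counts in adults and 16, 15, 8 and 16 counts at E14.5. It passed the filter through its E14.5 libraries alone, so its call as lower adds little to these counts. Hspa1l, of which 71.9% of exon bases are overlapped by Gm10501, was not called (log2 fold change 0.05, SE 0.177, edgeR adjusted p = 0.808). Outside the list, Dnajc22 had 0, 0 and 1 counts in adults and 17, 37, 14 and 37 counts at E14.5. It too passed the filter through its E14.5 libraries alone.

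The 7 genes that did not pass the filter were Cct6b, Cct8l1, Dnajb8, Dnajc5b, Dnajc5g, Hspb7 and Hspb9, with at most 14 counts in any library. Dnajc5g was at 0 in all libraries, where 3 counts correspond to 0.0619 to 0.130 CPM. Dnajb8, Dnajc5b and Hspb9 were at 0 in every adult library, and Hspb9 had 7, 8, 7 and 7 counts at E14.5. Cct6b, the testis form of the zeta subunit, had 6, 5 and 2 counts in adults and 14, 9, 12 and 13 counts at E14.5. Its ratio to Cct6a, with 0.5 CPM added to each, was 0.00373 to 0.00535 in adults and 0.00217 to 0.00253 at E14.5, and at these counts the ratio mostly reflects Cct6a and the added value.

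The regulators and partners of these chaperones changed in both directions. Of 5 tested genes in the heat shock factor list, 3 were higher and 2 lower (median log2 fold change 0.21). The background over all genes tested was 41.7% higher and 44.7% lower. The list includes Hsbp1, a protein that binds these factors and is not itself a factor, and the median is its value. Of the factors, Hsf4 and Hsf5 were higher and Hsf1 and Hsf2 lower. Hsf4 was the largest rise, with 20.8, 17.8 and 19.2 CPM in adults and 0.133, 0.136, 0.210 and 0.124 CPM at E14.5 (log2 fold change 6.98, SE 0.152, edgeR adjusted p = 1.05e-11). Hsf2, a factor known for its part in cortical development, was the largest fall, with 38.4, 38.5 and 39.8 CPM in adults and 83.8, 99.5, 95.0 and 98.5 CPM at E14.5 (log2 fold change -1.28, SE 0.0662, edgeR adjusted p = 9.33e-09). Hsf1, the main factor of the heat shock response, was slightly lower (log2 fold change -0.15, SE 0.0520, edgeR adjusted p = 0.0183).

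Of 11 nucleotide exchange factors and BAG proteins, 5 were higher, 4 lower and 2 not called (median -0.02), from Bag4 at a log2 fold change of 2.0 (SE 0.0640) to Bag6 at -0.88 (SE 0.0507). Of 17 HSP90 co-chaperones, 7 were higher, 9 lower and 1 not called (median -0.14). For each list in this paragraph, the background over all genes tested was 41.7% higher and 44.7% lower. Fkbp4, a prolyl isomerase that rides on HSP90 with steroid receptors, fell most, with 103, 107 and 107 CPM in adults and 298, 289, 295 and 286 CPM at E14.5 (log2 fold change -1.47, SE 0.0447, edgeR adjusted p = 1.14e-10). Stub1, the ubiquitin ligase CHIP that marks chaperone clients, rose most, with 99.8, 90.7 and 93.1 CPM in adults and 37.3, 34.9, 36.9 and 29.3 CPM at E14.5 (log2 fold change 1.45, SE 0.0803, edgeR adjusted p = 1.62e-08), and 42.3% of its exon bases are overlapped on the other strand. Of 9 mitochondrial proteases and unfoldases, 4 were higher, led by Afg3l2 (log2 fold change 0.77, SE 0.0477), 3 lower, led by its paralogue Afg3l1 (log2 fold change -1.61, SE 0.0516), and 2 were not called.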

How the data were processed

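RNA from 7 samples was sequenced after library preparation with kits that differed between the ages, per the labels' protocols. The tools listed in the submitters' processing notes are TopHat2 (2.1.0), featureCounts (1.5.0) and bcl2fastq (1.8.4), with GRCm38 as the build. How strand and reads with several matches were treated is not given in the sources used. In the table the authors deposited, each gene has a read count, an RPM value (count over library total) and an RPKM value (RPM over 1 length per gene), as the values themselves show. RPKM was used for levels within a library.

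Counts were fitted over all genes with edgeR 4.0.16 in R 4.3.3 (TMM, filterByExpr with minimum count 10 and minimum total 15, quasi-likelihood F test, age as the only term, Benjamini-Hochberg threshold 0.05). SE is the log2 fold change over the square root of F. Changes beyond 2-fold used glmTreat at a log2 threshold of 1. Gene pairs used an exact permutation test over 35 splits in SciPy 1.17.1. The chaperone genes, lists, pairs and tests were chosen with earlier results of these data known. Per-library values are given for the gene of highest RPKM and the largest called changes with a mean of at least 1 CPM in each family, all CCT and HSP90 genes, pair members, and list members beyond 2-fold. Of the partner lists, the largest called rise and fall are named. The result of 1 partner list is not reported here. Other chaperone genes, and partner genes such as Hsf1, were named after their values were seen. Intervals at low counts and the floor of 3 counts cover counting error only.

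GENCODE M21 (GRCm38) gave positions and opposite-strand overlap for 53706 identifiers. Pseudogenes were matched with BLAST 2.17.0 (identity of at least 90%, at least 50% aligned). DESeq2 1.42.0 and limma 3.58.1 served as alternatives. The test was checked on simulated counts.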

Additional observations from a re-analysis of the deposited data

How the results depend on the processing

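Of the 36 chaperone genes called higher, 30 were called higher under all 24 alternatives in which they were tested, and of the 28 called lower, 26 were called lower. The exceptions were Dnajc10, Dnajc13, Dnajc28, Dnajc4, Hspa9 and Hsp90b1 among the higher genes, and Dnajc14 and Hspa12b among the lower. Leaving out each library in turn gave 35 to 39 genes higher, 26 to 27 lower, 21 to 23 higher beyond 2-fold and 10 to 12 lower beyond 2-fold. It moved the difference in log2 ratio within 1.40 to 1.44 for Hsp90aa1 over Hsp90ab1, 3.51 to 3.61 for Hspa2 over Hspa8, 1.94 to 2.01 for Hspa4l over Hspa4, 0.877 to 0.914 for Dnaja2 over Dnaja1, 0.817 to 1.08 for Cct6b over Cct6a, and -0.298 to -0.180 for Hspe1 over Hspd1. Replicate numbers did not pair the ages: deviations of libraries with the same number correlated at -0.0282 to 0.0192, and 0 adult libraries correlated best with their own number. With the replicate number as a block, 36 genes were higher and 27 lower, 22 and 12 of them beyond 2-fold.

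Of the counts beyond 2-fold, those lower became 20 with library totals alone, 19 with limma on log2 of RPKM plus 0.1, and 7 with DESeq2. Those higher became 13 with limma on log2 of RPKM plus 0.5 and 15 with 0.1 added. Among genes without opposite-strand exon overlap, 15 were lower, where only 48 genes were tested. For the others the cause was not tested.

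Directions turned for genes with small changes. With library totals alone the log2 fold change was -0.292 for Dnajb1, -0.331 for Dnajb6, -0.137 for Dnajc10, -0.310 for Dnajc19, -0.297 for Dnajc25, -0.0701 for Hsp90b1, -0.312 for Hspa13, -0.368 for Hspa1l, -0.307 for Hspa4 and -0.258 for Hspa9, all called except those of Hsp90b1 and Hspa1l. In the same order, limma gave -0.285, -0.323, -0.134, -0.278, -0.20, -0.0694, -0.297, -0.230, -0.306 and -0.257 with 0.5 added, and -0.292, -0.328, -0.137, -0.301, -0.269, -0.0697, -0.311, -0.337, -0.309 and -0.258 with 0.1 added. Upper-quartile scaling gave -0.00453 for Dnajb1, -0.0435 for Dnajb6, -0.0219 for Dnajc19, -0.00966 for Dnajc25, -0.0243 for Hspa13, -0.0799 for Hspa1l and -0.0196 for Hspa4, and protein-coding genes alone, in this order, -0.0123, -0.0511, -0.0295, -0.0174, -0.0321, -0.0866 and -0.0274. GC and length offsets gave -0.0953 for Dnajb6, -0.0468 for Dnajc19, -0.154 for Hspa13 and -0.0408 for Hspa4. Dnajb11 became 0.0259 with RLE scaling and with DESeq2, 0.00248 with a mean of at least 1 CPM, 0.0506 without overlapped genes and ran from -0.112 to 0.0388 with a library left out. Hspa1l became -0.0322 without a filter and -0.0177 with the block, and it ran from -0.153 to 0.163 with a library left out. Hspa8 was called lower with library totals alone and became 0.0116 without overlapped genes and 0.251 with pseudogene counts added, an alternative chosen after seeing the data. Genes of few counts, such as Dnajb7, Dnajc22 and Cct6b, are limited by depth.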

Other observations

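Reads assigned to near-identical pseudogenes were a large part of the total for 8 chaperone genes (over 5% at either age), and 20 chaperone genes had 52 such pseudogenes in all. For most of these genes the share was alike at both ages. It was 27.1% in adults and 28.0% at E14.5 for Hsp90aa1, 22.8% in adults and 23.3% at E14.5 for Dnajb6, and 16.1% in adults and 19.1% at E14.5 for Dnaja1. Hspa8 (43.7% in adults and 29.9% at E14.5), Hspb1 (30.6% in adults and 6.36% at E14.5) and Dnajc17 (6.78% in adults and 17.8% at E14.5) were the exceptions. The Dnajc17 copy Gm6257, on chromosome 9 and 97.0% identical, had 13, 14 and 10 counts in adults and 138, 80, 69 and 146 counts at E14.5, and adding it took the log2 fold change of Dnajc17 to -0.94. A second Hspa8 copy besides Gm15459 was higher in adults, Gm7899, with 786, 740 and 779 counts in adults and 33, 32, 34 and 34 counts at E14.5. It too is overlapped by a gene on the other strand, Gm37348, over 90.4% of its exon bases.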
